A study of Mus musculus with 6 samples.

Results

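The 36 genes described here make up the protein-folding machinery of the endoplasmic reticulum and the unfolded protein response that adjusts it. They were chosen by gene symbol, and all 36 were found among the 25344 genes of the deposited table. By role, 16 encode chaperones, co-chaperones and disulfide isomerases that fold proteins, 5 encode sensors and transcription factors of the response, 8 are targets of the transcription factor ATF4, and 7 act in ER-associated degradation. Expression was measured by RNA-seq of total RNA from gastrocnemius, a calf muscle, in 3 libraries of wild-type mice (WT) and 3 libraries of transgenic littermates (HSA-NRTN). The transgenic animals express NRTN, which encodes the secreted neurotrophic factor neurturin, from the human α-skeletal actin promoter, a promoter active in skeletal muscle fibres. The labels record no treatment, and give no age, sex, strain or number of animals per library. Since nothing says that the libraries of a group came from separate animals, p-values here measure the spread between libraries, which may be technical.

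Between 27418154 and 50291845 reads per library were counted in genes. Nrtn lay between 1.70 and 4.33 FPKM in WT and between 169 and 201 FPKM in HSA-NRTN. The tissue label was borne out by 7 muscle fibre markers, which summed to 24419.7 to 29358 FPKM in WT and 19091 to 22217 FPKM in HSA-NRTN. FPKM divide the reads of a gene by its length in kilobases and by the library's total in genes. The 10 most abundant genes took 22.6% to 23.7% of the reads in WT and 18.4% to 20.7% in HSA-NRTN. FPKM make no allowance for such a difference in composition, and the size factors contained in the authors' table, which do, place HSA-NRTN lower by 0.30 on the log2 scale relative to WT. Each result is therefore given under both scalings. A gene is said to have risen or fallen only if it passed an adjusted p of 0.05 (limma, Benjamini-Hochberg over all 10755 tested genes) under both, and log2 changes refer to log2(FPKM + 1) of HSA-NRTN over WT, which understates changes of genes with low values. Means are given ± SD over 3 libraries. In bulk muscle, fewer cells of a type and less RNA per cell cannot be told apart.

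Secreted and membrane proteins enter the endoplasmic reticulum unfolded, and there the HSP70 chaperone BiP, the HSP90 chaperone GRP94, the lectin chaperones calnexin and calreticulin and the protein disulfide isomerases fold them. When unfolded proteins accumulate, a set of membrane sensors respond. IRE1 splices Xbp1 mRNA into the form that encodes an active transcription factor, ATF6 is cleaved to release a factor that binds promoters of chaperone genes, and PERK phosphorylates eIF2α, which slows translation in general and favours that of ATF4. ATF4 in turn induces genes of amino acid supply and the factor CHOP, and proteins that fail to fold are exported to the cytosol for degradation. In skeletal muscle the endoplasmic reticulum is continuous with the sarcoplasmic reticulum, the calcium store of contraction. Splicing of Xbp1, cleavage of ATF6 and phosphorylation of eIF2α are not visible in gene-level counts.

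Of the 36 genes, 32 reached a mean of 1 FPKM over the 6 libraries and were tested. With FPKM as deposited 22 were higher and 3 lower in HSA-NRTN, where 41.6% and 11.7% of all tested genes were. With the size factors 17 were higher and 6 lower, beside 21.1% and 29.9% of all tested genes. In the authors' deposited table, 17 were higher and 6 lower of 35 with an adjusted p. Of all genes with one there, 18.0% were higher and 17.8% lower. That background includes many genes below the level for testing used here. Among the 10753 of them tested here, the authors' calls were 2189 higher and 3032 lower. 17 genes thus rose and 3 fell under both scalings, beside 21.1% and 11.7% of all tested genes. Those that rose were mostly folding genes, and those that fell were Atf4, Ppp1r15a and Chac1. The genes below 1 FPKM were Asns, Trib3, Phgdh and Derl3. Psat1 passed the level for testing only through the HSA-NRTN libraries, so that its being called among the tested genes supports nothing.

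**Figure D1:**
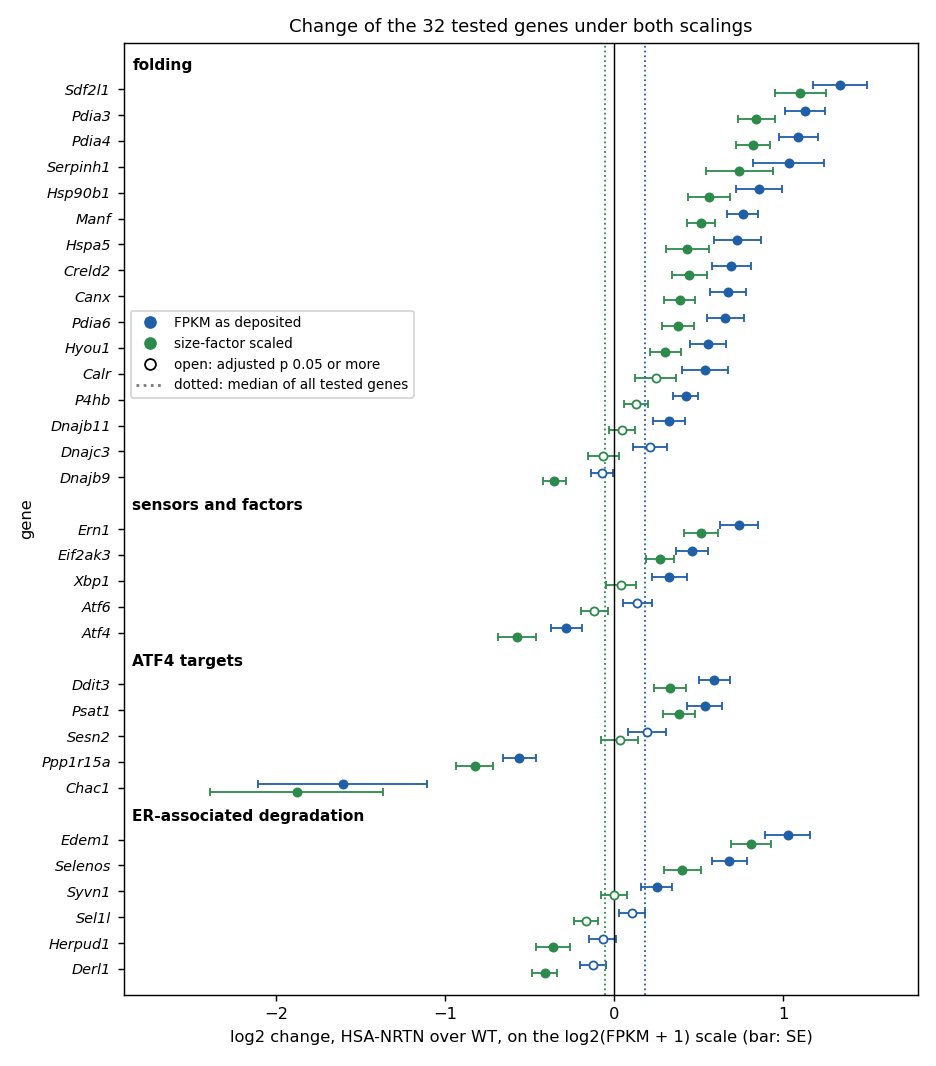
Log2 change of HSA-NRTN over WT for the 32 tested genes, by role, on the log2(FPKM + 1) scale with limma's SE, for FPKM as deposited and for size-factor scaled values; filled points passed an adjusted p of 0.05 and dotted lines mark the medians of all tested genes, 0.18 and -0.05. Most folding genes lie to the right of both dotted lines, while Atf4, Ppp1r15a and Chac1 lie to the left under either scaling.

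Most folding genes were called higher in HSA-NRTN. With FPKM as deposited, 14 of the 16 were called higher and 0 lower, the latter count also being 0 at an unadjusted p under 0.05 (limma). With the size factors 11 were higher and 1 lower. Limma-voom on the recovered reads also gave 11 and 1, but it used the same size factors and is no separate check of the scaling. Their median log2 change was 0.68 beside 0.18 for all tested genes, and 0.41 beside -0.05 with the size factors. The 11 that rose were Hspa5, Hsp90b1, Hyou1, Sdf2l1, Canx, Pdia3, Pdia4, Pdia6, Creld2, Manf and Serpinh1. The libraries of the groups did not overlap for 14 of the 16, all higher in HSA-NRTN, where 47.0% of all tested genes were separated in that direction. With the size factors 12 were separated upwards and 1 downwards (all tested genes, 24.6% and 35.4%).

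**Figure D2:**
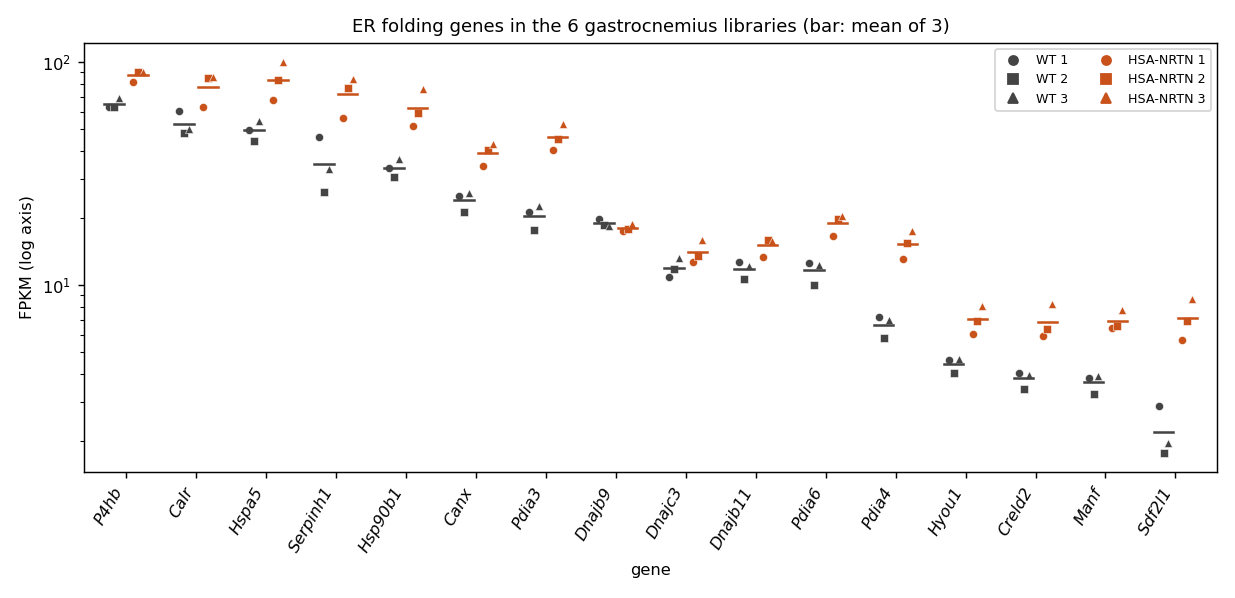
FPKM (log axis) of the 16 folding genes in each of the 3 WT and 3 HSA-NRTN libraries, ordered by their WT mean, with bars at the mean of 3. The groups are apart for all but Dnajb9 and Dnajc3, from P4hb at a WT mean of 65.0 FPKM to Sdf2l1 at 2.20 FPKM.

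Many folding genes carry the ER stress response element (ERSE) in their promoters, a composite site of a CCAAT box, bound by NF-Y, and a CCACG box, bound by ATF6. RefSeq promoter windows (build GRCm38.p6, 250 bases before to 50 after the start of a gene) were present for 32 of the 36 genes, 14 of them folding genes. The start taken for Dnajc3 and Pdia4 lies 44 and 82 bases from that of the deposited table and at no start of an annotated transcript, and that for Psat1 lies at the start the table gives, inside the span of the gene. The element, searched on both strands as exactly CCAAT, then 9 bases of any kind, then CCACG, occurred in the windows of 7 of the 14 folding genes and of 9 of the 32 genes in all. Of 27025 windows of all genes, 33 held it (0.122%). Other starts taken also differ from those of the deposited table, by up to 3476 bases (Hsp90b1). Those of Hspa5 and Asns differ by 120 and 338 bases, and the sites printed for both fall inside the span that table gives the gene. The stretches below show the ERSE sites upstream of the RefSeq start of 7 folding genes, on the gene's strand from 5′ to 3′. The element is in capitals, which begin with CGTGG where it lies in reverse.
Hspa5 (chr2:34772014-34772054, plus strand): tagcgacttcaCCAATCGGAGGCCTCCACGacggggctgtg
Hsp90b1, distal site (chr10:86705627-86705667, minus strand): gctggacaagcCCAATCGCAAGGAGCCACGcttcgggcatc
Hsp90b1, proximal site (chr10:86705522-86705562, minus strand): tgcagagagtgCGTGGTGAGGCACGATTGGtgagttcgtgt
Canx (chr11:50325789-50325829, minus strand): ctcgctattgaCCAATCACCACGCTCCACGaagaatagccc
Calr (chr8:84847064-84847104, minus strand): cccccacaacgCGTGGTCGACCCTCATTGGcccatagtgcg
Pdia6 (chr12:17266480-17266520, plus strand): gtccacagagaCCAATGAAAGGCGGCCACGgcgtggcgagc
Creld2 (chr15:88819509-88819549, plus strand): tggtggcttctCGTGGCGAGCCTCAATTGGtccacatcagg
Dnajc3 (chr14:118937816-118937856, plus strand): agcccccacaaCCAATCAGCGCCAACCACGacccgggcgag
Of these 7 genes, 5 rose, while Calr was called with FPKM alone and Dnajc3 under neither scaling. Their log2 changes ran from 0.21 to 0.85, with a median of 0.68. In the 7 folding genes whose windows lack the exact letters, they ran from -0.07 to 1.34, with a median of 1.03. The 4 folding genes with the largest changes, Sdf2l1, Pdia3, Pdia4 and Serpinh1, are among the latter. The 200 bases before the RefSeq start of Sdf2l1 hold no exact ERSE, and are shown to compare with the sites above.
Sdf2l1 (chr16:17132384-17132583, minus strand): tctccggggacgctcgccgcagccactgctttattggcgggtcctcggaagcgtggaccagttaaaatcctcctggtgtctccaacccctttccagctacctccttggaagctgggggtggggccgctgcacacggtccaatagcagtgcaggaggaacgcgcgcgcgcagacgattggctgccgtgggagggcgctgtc
Neither a match nor its absence shows whether a factor binds there.

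The central chaperones of the lumen rose by less than a doubling. Hspa5, which encodes BiP and has an ERSE in its window (ENSMUSG00000026864; GRCm38 chromosome 2, 34771970 to 34777547), stood at 49.5, 44.4 and 54.5 FPKM in WT 1 to 3 and 67.6, 82.7 and 99.8 FPKM in HSA-NRTN 1 to 3. Every HSA-NRTN library exceeded every WT library. Its mean went from 49.5 ± 5.05 to 83.3 ± 16.1 FPKM (SD, n = 3 each), a log2 change of 0.73 ± 0.14 (SE) by limma (adjusted p = 0.00306) and of 0.43 under size-factor scaling (limma, adjusted p = 0.0205). With the size factors its call ended without WT 2 or HSA-NRTN 3 (limma, adjusted p up to 0.0698). Hsp90b1, which encodes GRP94 (chromosome 10, 86690209 to 86705509), was at 33.7, 30.5 and 36.7 FPKM in WT 1 to 3 and 51.7, 59.1 and 75.8 FPKM in HSA-NRTN 1 to 3. It was highest in HSA-NRTN 3 and the groups did not overlap. The log2 change was 0.85 ± 0.14 (SE) by limma (adjusted p = 0.00126), and 0.56 under size-factor scaling (limma, adjusted p = 0.00656). Exons of a gene on the other strand, 1810014B01Rik, cover 10.3% of the Hsp90b1 exons, with a mean of 7.99 FPKM for that gene, and the strand of the reads is not given in the sources used here. Hyou1, an HSP110-type exchange factor that resets BiP, ranged over 4.04 to 4.65 FPKM in WT and 6.02 to 8.10 FPKM in HSA-NRTN and rose by 0.56 on the log2 scale. It rose by 0.30 under size-factor scaling (limma, adjusted p = 0.0227), and that call too ended without WT 2 or HSA-NRTN 3 (limma, adjusted p up to 0.0785).

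The co-chaperones of BiP went different ways. Sdf2l1, a small luminal partner of BiP and its J-domain proteins (chromosome 16, 17130138 to 17132383), had the largest rise of the 32 tested genes on the log2 scale. It was at 2.86, 1.77 and 1.97 FPKM in WT 1 to 3 and 5.68, 6.91 and 8.68 FPKM in HSA-NRTN 1 to 3, so that the lowest HSA-NRTN value was about that of the highest WT value doubled. The log2 change was 1.34 ± 0.16 (SE) by limma (adjusted p = 3.24e-04), and 1.10 under size-factor scaling (limma, adjusted p = 6.88e-04). None of the 3 J-domain proteins was called the same way under both scalings. Dnajb9 (ERdj4), which is known to restrain IRE1, was at 19.9, 18.7 and 18.4 FPKM in WT 1 to 3 and 17.5, 17.8 and 18.8 FPKM in HSA-NRTN 1 to 3. These values overlapped between the groups. The log2 change was -0.07 ± 0.07 (SE) by limma (adjusted p = 0.394) with FPKM as deposited, and it was called lower at -0.35 under size-factor scaling (limma, adjusted p = 0.00368). Dnajb11 (ERdj3) ranged over 10.6 to 12.7 FPKM in WT and 13.4 to 15.9 FPKM in HSA-NRTN and was called higher with FPKM (log2 change 0.32; limma, adjusted p = 0.0195) but not with the size factors (0.05; adjusted p = 0.647). With FPKM that call ended without WT 2, HSA-NRTN 2 or HSA-NRTN 3 (limma, adjusted p up to 0.0713). Dnajc3 (P58IPK), a co-chaperone that also inhibits PERK, overlapped between groups and was called under neither scaling (0.21 and -0.06; limma, adjusted p = 0.105 and 0.592). A ratio of genes within a library does not depend on how libraries are scaled. Hspa5 over Dnajb9, in FPKM, was 2.49, 2.38 and 2.96 in WT and 3.85, 4.65 and 5.31 in HSA-NRTN, without overlap.

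Among the lectin chaperones and disulfide isomerases, Pdia3 and Pdia4 had the largest log2 changes. Pdia3 (ERp57), the isomerase that works with calnexin and calreticulin (chromosome 2, 121413775 to 121438687), was at 21.2, 17.7 and 22.6 FPKM in WT 1 to 3 and 40.2, 45.1 and 52.9 FPKM in HSA-NRTN 1 to 3. All HSA-NRTN libraries were above all WT libraries, by a log2 change of 1.13 ± 0.12 (SE) by limma (adjusted p = 1.75e-04) and of 0.84 under size-factor scaling (limma, adjusted p = 5.10e-04). Pdia4 (ERp72), another isomerase of the lumen (chromosome 6, 47796141 to 47813430), was at 7.19, 5.79 and 6.99 FPKM in WT 1 to 3 and 13.1, 15.4 and 17.5 FPKM in HSA-NRTN 1 to 3. Its log2 change was 1.09 ± 0.11 (SE) by limma (adjusted p = 1.62e-04), and 0.82 under size-factor scaling (limma, adjusted p = 3.81e-04). Pdia6 rose less, from 11.6 ± 1.43 to 18.9 ± 2.07 FPKM (log2 change 0.66, and 0.38 with the size factors). P4hb, the most abundant folding gene in WT, encodes the founding isomerase and the β-subunit of collagen prolyl 4-hydroxylase. It ranged over 63.1 to 68.7 FPKM in WT and 81.5 to 90.5 FPKM in HSA-NRTN, with a log2 change of 0.42 (limma, adjusted p = 0.00190), but was not called with the size factors (0.13; limma, adjusted p = 0.155). Pdia3 over P4hb within a library was 0.337, 0.280 and 0.329 in WT and 0.493, 0.499 and 0.585 in HSA-NRTN, so that these isomerase transcripts changed unequally. The lectin chaperones were both called with FPKM, and Canx under both scalings. Canx, calnexin, rose from 24.1 ± 2.43 to 39.1 ± 4.57 FPKM (log2 change 0.68, and 0.39 with the size factors). Calr, which also binds calcium in the lumen, went from 52.8 ± 6.45 to 77.5 ± 12.9 FPKM and was called with FPKM (log2 change 0.54; limma, adjusted p = 0.0105) but not under size-factor scaling (0.24; adjusted p = 0.123), unless HSA-NRTN 1 was left out (0.0301).

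The remaining folding genes all rose. Manf, a luminal protein that is secreted under ER stress (chromosome 9, 106838312 to 106891979), was at 3.83, 3.27 and 3.91 FPKM in WT 1 to 3 and 6.41, 6.59 and 7.74 FPKM in HSA-NRTN 1 to 3. The groups were far apart relative to their spread, with a log2 change of 0.76 ± 0.09 (SE) by limma (adjusted p = 3.39e-04) and of 0.51 under size-factor scaling (limma, adjusted p = 0.00152). Creld2, a disulfide isomerase-like protein induced by ER stress, ranged over 3.43 to 4.06 FPKM in WT and 5.92 to 8.22 FPKM in HSA-NRTN (log2 change 0.69, and 0.44 with the size factors). Serpinh1, which encodes HSP47, the chaperone specific to procollagen (chromosome 7, 99345376 to 99353239), was at 45.9, 26.0 and 33.2 FPKM in WT 1 to 3 and 55.8, 76.3 and 83.6 FPKM in HSA-NRTN 1 to 3. It was the folding gene with the largest spread among WT libraries relative to its mean, highest in WT 1 and lowest in WT 2. The log2 change was 1.03 ± 0.21 (SE) by limma (adjusted p = 0.00401), and 0.74 under size-factor scaling (limma, adjusted p = 0.0147), a call that ended without HSA-NRTN 2 (limma, adjusted p = 0.0513).

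Most folding genes were lowest and highest in the same libraries within a group. With FPKM in HSA-NRTN, 16 of 16 were lowest in library 1 and 15 were highest in library 3, beside 52.5% and 37.2% of all tested genes. Within WT, 14 of 16 were lowest in library 2, beside 41.7% of all tested genes. With the size factors 12 of 16 were lowest in HSA-NRTN 1, 16 highest in HSA-NRTN 3 and 13 lowest in WT 2, where 32.7%, 30.7% and 30.4% of all tested genes were. Their summed level was 377, 320.4 and 369 FPKM in WT 1, 2 and 3 and 491, 588 and 652 FPKM in HSA-NRTN 1, 2 and 3. The groups did not overlap in this sum. The spread within HSA-NRTN was wider than that within WT.

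**Figure D3:**
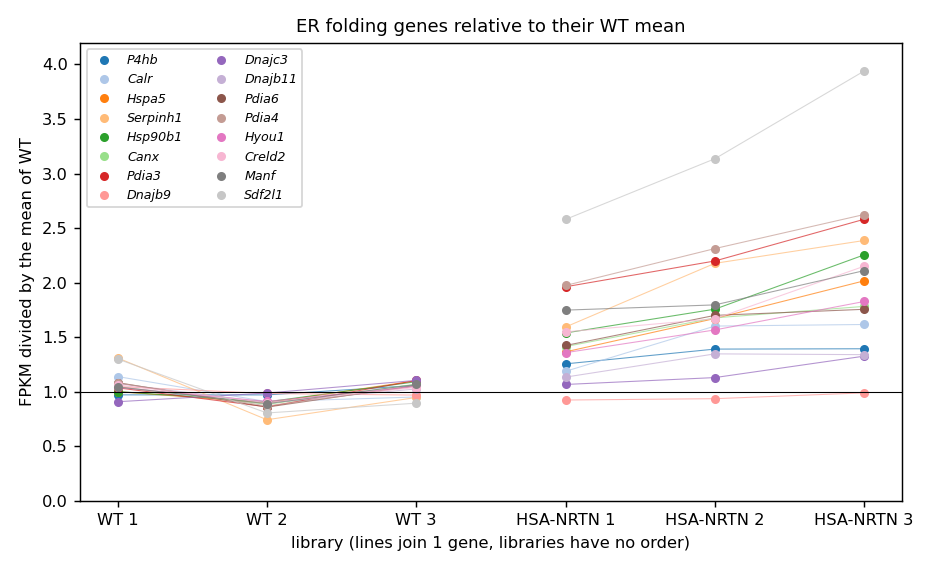
FPKM of each of the 16 folding genes divided by its WT mean, in the 6 libraries; thin lines join the values of 1 gene within a group and imply no order of libraries. Sdf2l1 is highest in every HSA-NRTN library, Dnajb9 stays near 1 throughout, and most genes are lowest in HSA-NRTN 1 and highest in HSA-NRTN 3.

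Most markers of macrophages and fibroblasts were also called higher in HSA-NRTN under both scalings, and most of those of endothelium with FPKM alone. For reference, 41.6% of all tested genes were higher and 11.7% lower with FPKM, and 21.1% and 29.9% with the size factors. The summed level of 6 macrophage markers was 44.0 to 59.4 FPKM in WT and 286 to 305 FPKM in HSA-NRTN, and 6 of 6 tested were higher and 0 lower under either scaling. For 6 fibroblast markers the sums were 222 to 254 FPKM in WT and 382 to 461 FPKM in HSA-NRTN; 5 of 6 tested were higher and 0 lower (4 and 0 with the size factors). For 5 endothelial markers they were 58.5 to 63.8 FPKM in WT and 73.1 to 93.1 FPKM in HSA-NRTN; 5 of 5 tested were higher and 0 lower (1 and 0). Of 4 adipocyte markers, at 53.9 to 72.0 FPKM in WT and 145 to 297 FPKM in HSA-NRTN, 3 were higher and 0 lower (2 and 1 with the size factors). None of the markers in these lists was at 0 in every library. Of the 7 muscle fibre markers, 1 was higher and 4 lower (1 and 5 with the size factors). Of 7 markers of B cells and plasma cells, which are rich in ER chaperones, 5 were below 1 FPKM on average, Ighm was lower and Igkc higher. The sums were 70.2 to 89.0 FPKM in WT and 14.9 to 20.6 FPKM in HSA-NRTN. Their fall is that of Ighm alone, at 67.4 to 87.4 FPKM in WT and 7.74 to 10.9 FPKM in HSA-NRTN. Igkc was at 0.617 to 1.76 and 4.86 to 8.55 FPKM. Among the 5 below 1 FPKM, Jchain was at 0.0725 to 0.169 FPKM in WT and 0.30 to 0.351 FPKM in HSA-NRTN, and Mzb1 was at 0.443 to 0.911 and 1.16 to 1.38 FPKM. The part of any of these cell types in the results for the 36 genes was not tested.

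The sensors of the response differed from each other. Of the 5 sensors and factors, all tested, 3 were higher and 1 lower with FPKM, and 2 and 1 with the size factors. Among all tested genes, 41.6% and 11.7% were higher and lower with FPKM, and 21.1% and 29.9% with the size factors. No direction of the list is read from so few genes. Ern1 and Eif2ak3 rose and Atf4 fell. Ern1, which encodes IRE1α, the kinase and nuclease that splices Xbp1 (chromosome 11, 106394650 to 106487852), was at 1.95, 2.13 and 2.40 FPKM in WT 1 to 3 and 3.73, 4.0 and 5.16 FPKM in HSA-NRTN 1 to 3. It was highest in HSA-NRTN 3, and the groups did not overlap. This amounted to a log2 change of 0.74 ± 0.11 (SE) by limma (adjusted p = 9.79e-04), and 0.51 under size-factor scaling (limma, adjusted p = 0.00383). Eif2ak3, which encodes PERK (chromosome 6, 70844515 to 70905245), was at 1.23, 1.22 and 1.62 FPKM in WT 1 to 3 and 2.06, 2.24 and 2.41 FPKM in HSA-NRTN 1 to 3. Its log2 change was 0.46 ± 0.09 (SE) by limma (adjusted p = 0.00399), and 0.27 under size-factor scaling (limma, adjusted p = 0.0286). The latter call ended without WT 1 or 2 or HSA-NRTN 2 or 3 (limma, adjusted p up to 0.0975). Atf6 overlapped between the groups, at 4.98 to 6.17 FPKM in WT and 5.86 to 6.12 FPKM in HSA-NRTN, and was called under neither scaling (0.14 and -0.12; limma, adjusted p = 0.212 and 0.242). The 95% interval of its log2 change with FPKM ran from -0.06 to 0.33. Within a library, Ern1 over Atf6 was 0.385, 0.427 and 0.390 in WT and 0.636, 0.654 and 0.852 in HSA-NRTN.

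Of the factors downstream of IRE1 and PERK, Xbp1 was called higher with FPKM alone and Atf4 fell. Xbp1, counted over both its spliced and unspliced forms (chromosome 11, 5520659 to 5525893), was at 18.2, 15.4 and 17.7 FPKM in WT 1 to 3 and 18.8, 22.7 and 23.7 FPKM in HSA-NRTN 1 to 3. It was called higher with FPKM (log2 change 0.32 ± 0.10 (SE); limma, adjusted p = 0.0282) but not with the size factors (0.04; adjusted p = 0.715). With FPKM its call ended without WT 2, HSA-NRTN 2 or HSA-NRTN 3 (limma, adjusted p up to 0.10). Atf4 (chromosome 15, 80255184 to 80257541) was the most abundant of the 5 per kilobase, at 71.5, 62.2 and 59.8 FPKM in WT 1 to 3 and 58.3, 49.7 and 50.5 FPKM in HSA-NRTN 1 to 3. The highest HSA-NRTN value lay just below the lowest WT value. The fitted log2 change was -0.28 ± 0.09 (SE) by limma (adjusted p = 0.0335), and -0.58 under size-factor scaling (limma, adjusted p = 0.00382). With FPKM the call ended without WT 1 or 2 or HSA-NRTN 2 or 3 (limma, adjusted p up to 0.110), and with no filter on low values (adjusted p = 0.0697), while with the size factors it held without any single library. ATF4 is controlled largely by translation, which mRNA levels do not show.

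**Figure D4:**
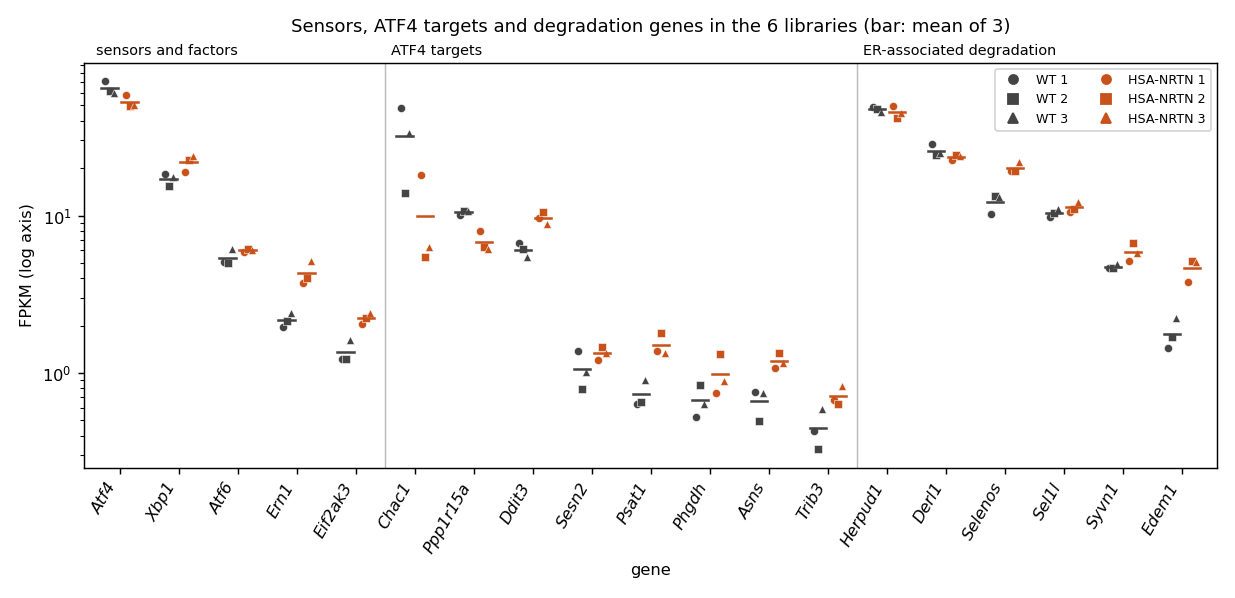
FPKM (log axis) of the sensors and factors, the ATF4 targets and the genes of ER-associated degradation in the 6 libraries, ordered within each role by the WT mean, with bars at the mean of 3; Derl3, at or near 0, is left out. Atf4, Chac1 and Ppp1r15a, which fell, have lower means in HSA-NRTN. Ern1, Eif2ak3, Xbp1, Ddit3, Psat1, Asns, Trib3, Syvn1, Edem1 and Selenos have higher ones without overlap, as 47.0% of all tested genes have. Psat1 passed the level for testing only through HSA-NRTN, and Asns and Trib3 were not tested.

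Of the 8 ATF4 targets, 5 were tested. Ppp1r15a and Chac1 fell, Ddit3 rose and Sesn2 was not called; Psat1, the other gene called higher, was tested only because of its level in HSA-NRTN. Of all tested genes, 41.6% and 11.7% were called higher and lower with FPKM and 21.1% and 29.9% with the size factors, and no direction of the ATF4 targets as a list is read from so few genes. Chac1, an enzyme that degrades glutathione (chromosome 2, 119351229 to 119354381), had the largest fall of the 32 genes and also the widest spread. It was at 48.0, 13.9 and 33.6 FPKM in WT 1 to 3 and 18.1, 5.48 and 6.28 FPKM in HSA-NRTN 1 to 3. The groups overlapped, since WT 2 lay below HSA-NRTN 1. The mean went from 31.9 ± 17.1 to 9.95 ± 7.07 FPKM (SD, n = 3 each), a log2 change of -1.61 ± 0.50 (SE) by limma (adjusted p = 0.0260) and of -1.88 under size-factor scaling (limma, adjusted p = 0.0165). With FPKM the call ended without WT 1 or 3 or HSA-NRTN 2 or 3 (limma, adjusted p up to 0.0895) and with no filter on low values (0.0853). With the size factors it ended without WT 1 or HSA-NRTN 2 or 3 (adjusted p up to 0.0640). Ppp1r15a, which encodes GADD34, the subunit that directs dephosphorylation of eIF2α (chromosome 7, 45522916 to 45526268), fell with little spread. It was at 10.1, 10.6 and 10.7 FPKM in WT 1 to 3 and 7.98, 6.35 and 6.15 FPKM in HSA-NRTN 1 to 3. Its log2 change was -0.56 ± 0.10 (SE) by limma (adjusted p = 0.00180), and -0.83 under size-factor scaling (limma, adjusted p = 6.41e-04), called without any single library under either scaling.

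Unlike Atf4, Ddit3 rose. Ddit3, which encodes CHOP, a factor linked to cell death under prolonged ER stress (chromosome 10, 127290774 to 127296288), was at 6.71, 6.13 and 5.42 FPKM in WT 1 to 3 and 9.64, 10.5 and 8.88 FPKM in HSA-NRTN 1 to 3. The groups did not overlap. In log2 terms the change was 0.59 ± 0.09 (SE) by limma (adjusted p = 0.00111), and 0.33 under size-factor scaling (limma, adjusted p = 0.0208). The call with the size factors ended without WT 3, HSA-NRTN 1 or HSA-NRTN 2 (limma, adjusted p up to 0.0729). Ddit3 over Atf4 within a library was 0.0938, 0.0985 and 0.0906 in WT and 0.165, 0.211 and 0.176 in HSA-NRTN, and Ppp1r15a over Atf4 was 0.141, 0.171 and 0.180 and 0.137, 0.128 and 0.122. The former ratio was higher and the latter lower in every HSA-NRTN library than in any WT library.

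The amino acid synthesis genes were low in this muscle. Psat1, of serine synthesis, was at 0.634, 0.656 and 0.907 FPKM in WT 1 to 3 and 1.39, 1.8 and 1.35 FPKM in HSA-NRTN 1 to 3, from 74 to 385 reads per library. Its groups did not overlap, and its log2 change was 0.53 ± 0.10 (SE) by limma (adjusted p = 0.00323) and 0.38 under size-factor scaling (limma, adjusted p = 0.0117). Since Psat1 was tested only through its level in HSA-NRTN, these p-values support nothing. Without HSA-NRTN 2 its mean fell below the level for testing. Asns, asparagine synthetase, was at 0.760, 0.498 and 0.747 FPKM in WT 1 to 3 and 1.07, 1.34 and 1.16 FPKM in HSA-NRTN 1 to 3, below the level for testing. Its groups did not overlap, and without the filter it was called higher (log2 change 0.40; limma, adjusted p = 0.0276; 22.1% of all genes were called higher in that fit), though the authors' deposited table gives it an adjusted p of 0.104 and a fold change of 0.54 (log2). Phgdh, which starts serine synthesis, overlapped between the groups at 0.528 to 0.842 FPKM in WT and 0.746 to 1.32 FPKM in HSA-NRTN. Several annotated copies of Phgdh are nearly identical to it, so its reads may have been split or dropped. Trib3, a pseudokinase that restrains ATF4, was at 0.328 to 0.588 FPKM in WT and 0.636 to 0.831 FPKM in HSA-NRTN, and was not called without the filter (limma, adjusted p = 0.0933). Sesn2, a stress-induced inhibitor of mTORC1 signalling, overlapped at 0.794 to 1.37 FPKM in WT and 1.22 to 1.47 FPKM in HSA-NRTN and was not called (limma, adjusted p = 0.179 with FPKM and 0.823 with the size factors).

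ATF4 acts with C/EBP factors at the element TGATGNAA, which occurred on either strand in the windows of 3 of the 8 ATF4 targets (Chac1, Asns and Trib3) and of 1 further gene, Herpud1, beside 4.08% of the 27025 windows. In Chac1 it lies in reverse. The sites of genes that went different ways, Chac1 down and Asns with higher values, are shown for comparison.
Chac1 (chr2:119351038-119351067, plus strand): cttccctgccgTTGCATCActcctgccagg
Asns (chr6:7693214-7693243, minus strand): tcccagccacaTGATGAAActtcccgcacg
The UPR element TGACGTGG, bound by XBP1, was in none of the 32 windows, and in 0.581% of all. These matches are descriptions of letters.

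ER-associated degradation showed no common direction. Of 7 genes, 6 were tested. With FPKM 3 were higher and 0 lower (0 lower at an unadjusted p under 0.05, limma). With the size factors, and with limma-voom, which used them too, 2 were higher and 2 lower. Their median log2 change was 0.18 with FPKM and -0.08 with the size factors, beside 0.18 and -0.05 for all tested genes. Edem1 and Selenos rose. Edem1, a lectin that sends misfolded glycoproteins to degradation (chromosome 6, 108828641 to 108859356), was at 1.44, 1.69 and 2.22 FPKM in WT 1 to 3 and 3.80, 5.12 and 5.08 FPKM in HSA-NRTN 1 to 3. The lowest HSA-NRTN library was well above the highest WT library. Its log2 change was 1.03 ± 0.13 (SE) by limma (adjusted p = 4.35e-04), and 0.81 under size-factor scaling (limma, adjusted p = 9.19e-04). Selenos, a selenoprotein that links the export complex to the ATPase VCP (chromosome 7, 66079649 to 66089405), was at 10.2, 13.3 and 13.2 FPKM in WT 1 to 3 and 19.3, 19.3 and 21.8 FPKM in HSA-NRTN 1 to 3. The groups did not overlap, and the log2 change was 0.68 ± 0.11 (SE) by limma (adjusted p = 0.00112). It was 0.40 under size-factor scaling (limma, adjusted p = 0.0162), a call that ended without HSA-NRTN 3 (limma, adjusted p = 0.0572).

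None of the other 4 tested degradation genes was called the same way under both scalings. Derl1, a channel protein (chromosome 15, 57869502 to 57892448), was at 28.4, 24.2 and 25.0 FPKM in WT 1 to 3 and 22.6, 24.2 and 24.0 FPKM in HSA-NRTN 1 to 3. All HSA-NRTN values were below all WT values, WT 2 and HSA-NRTN 2 by less than the rounding. HSA-NRTN differed from WT by a log2 change of -0.12 ± 0.08 (SE) by limma (adjusted p = 0.206), and it was called lower at -0.41 under size-factor scaling (limma, adjusted p = 0.00288). Herpud1, a scaffold of the ubiquitin ligase complex that ER stress is known to induce, overlapped at 45.6 to 49.1 FPKM in WT and 41.8 to 49.5 FPKM in HSA-NRTN. Its log2 change was -0.07 (limma, adjusted p = 0.489) and -0.36 under size-factor scaling (limma, adjusted p = 0.0180), a call that ended without WT 2 or HSA-NRTN 2 or 3 (adjusted p up to 0.0622). Its promoter window holds ERSE-II, that is ATTGG, 1 base of any kind and CCACG, which 10 of 27025 windows hold, and is shown with that element in capitals.
Herpud1 (chr8:94386366-94386398, plus strand): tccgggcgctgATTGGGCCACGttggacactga
Syvn1 encodes HRD1, the ubiquitin ligase itself. It was called higher with FPKM (log2 change 0.25; limma, adjusted p = 0.0477) but not with the size factors (0.00; adjusted p = 0.992). Of the 6 fits that left out a library, 1 kept its call with FPKM, that without HSA-NRTN 1. Sel1l, the partner of HRD1, was called under neither scaling (0.10 and -0.17; limma, adjusted p = 0.279 and 0.0793). Within a library, Edem1 over Sel1l was 0.147, 0.163 and 0.202 in WT and 0.360, 0.462 and 0.419 in HSA-NRTN. Derl3, a channel protein of secretory cells, had 0, 1 and 3 reads in WT and 0, 2 and 2 reads in HSA-NRTN; no difference was detectable at this depth.

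Other genes of the same processes were read from lists, with the 0.18 and -0.05 (size factors) of all tested genes as the reference for medians. The reference for counts was 41.6% of all tested genes higher and 11.7% lower with FPKM, and 21.1% and 29.9% under size-factor scaling. Of 31 tested genes of other ER folding enzymes and chaperones, 17 were higher and 2 lower with FPKM and 9 and 7 under size-factor scaling; medians on the log2 scale were 0.24 and 0.03. Those with the smallest p rose. They were the peptidyl-prolyl isomerase Ppib (log2 change 0.82, and 0.55 with the size factors), the chaperone Cnpy3 (log2 change 0.69, and 0.45 with the size factors) and Ganab (log2 change 0.74, and 0.47 with the size factors), a subunit of the glucosidase that trims glycans for the calnexin cycle. Ppib was at 6.94, 6.43 and 7.25 FPKM in WT 1 to 3 and 12.9, 12.7 and 13.0 FPKM in HSA-NRTN 1 to 3. Of 32 tested genes for entry into the ER, 10 were higher and 2 lower with FPKM and 3 and 13 under size-factor scaling, and the medians were 0.13 and -0.15. The entry genes with the smallest p rose, though more genes of this list were lower than higher under size-factor scaling. They were Tram1, of the translocation channel, Tusc3, of the enzyme that attaches glycans, and the channel subunit Sec61a1 (log2 change 0.83, 0.70 and 0.71).

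Further degradation, signalling and ATF4 target genes were called in both directions. Of all tested genes, 41.6% were higher and 11.7% lower with FPKM, and 21.1% and 29.9% under size-factor scaling. Under size-factor scaling, a larger share of each list was lower than of all tested genes. Several other shares, such as those of signalling genes called higher, lay near those of all tested genes, and no direction is read from them. Of 23 tested degradation genes, 7 were higher and 6 lower with FPKM and 1 and 13 under size-factor scaling, with medians of 0.02 and -0.26. Vcp, the ATPase that extracts substrates from the membrane, fell from 43.1 ± 1.30 to 32.7 ± 0.942 FPKM (log2 change -0.39 ± 0.06, SE; limma, adjusted p = 0.00134). Os9, a lectin of the HRD1 complex, rose from 7.8 ± 0.439 to 13.4 ± 1.06 FPKM, and the ubiquitin-conjugating enzyme gene Ube2g2 was called higher with FPKM alone. Of 21 tested signalling genes, 8 were higher and 3 lower with FPKM and 4 and 12 under size-factor scaling. Eif2s2 and Eif2b2, of the translation initiation factor eIF2 and its exchange factor, fell by 0.60 and 0.40 on the log2 scale, and Wfs1, an ER membrane protein, rose by 0.67. Of 27 tested further ATF4 targets, 8 were higher and 4 lower with FPKM and 5 and 12 under size-factor scaling, with medians of 0.05 and -0.21. Mthfd2, of mitochondrial folate metabolism, and Ddit4, an inhibitor of mTORC1, rose (log2 change 0.45 and 0.84), while Shmt2 was called higher with FPKM alone (0.47).

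Chaperones of the cytosol were called in both directions, in shares near those of all tested genes (41.6% and 11.7% higher and lower with FPKM, 21.1% and 29.9% with the size factors). Of 28 tested, 11 were higher and 5 lower with FPKM and 7 and 10 under size-factor scaling, with medians of 0.23 and -0.06. Hspb8, a small heat shock protein of muscle, fell from 236 ± 21.4 to 119 ± 10.8 FPKM, and Hspa1l fell by 0.83 on the log2 scale, while Hspa2 rose by 0.91. Collagens, the clients of HSP47, were called higher. Of 16, all tested, 15 were higher and 0 lower (0 lower at an unadjusted p under 0.05, and 0 with limma-voom), and 12 and 0 with the size factors, with medians of 0.86 and 0.58. Col6a1, Col6a2 and Col14a1 had the smallest p and rose by 1.42, 1.45 and 1.17. Serpinh1 over Col1a1 within a library was 0.779, 0.475 and 0.602 in WT and 0.691, 0.595 and 0.717 in HSA-NRTN, which overlapped.

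**Figure D5:**
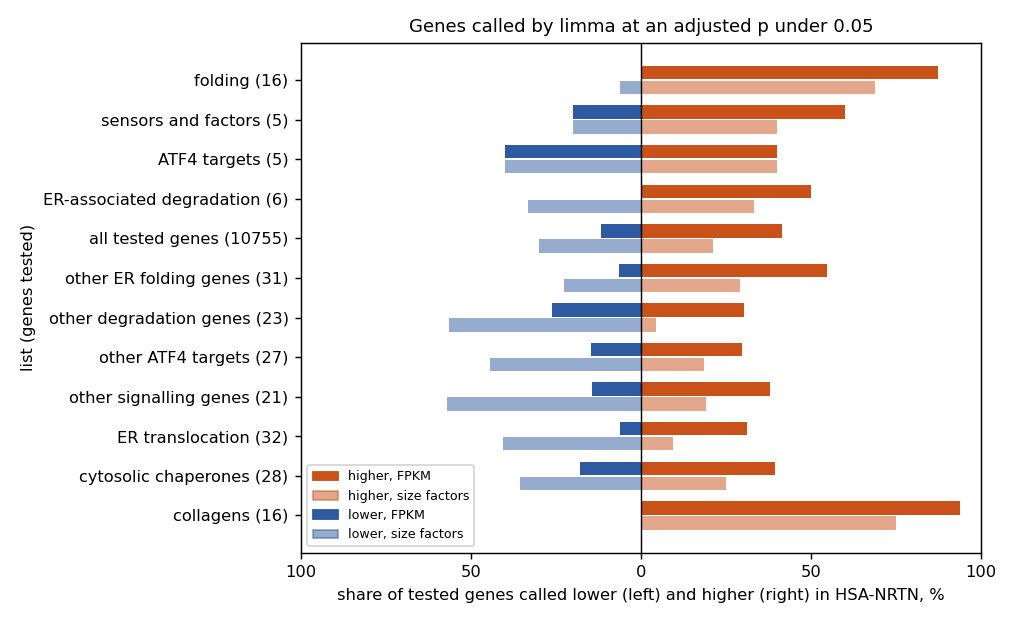
Share of tested genes in each list called higher (right) or lower (left) in HSA-NRTN by limma at an adjusted p under 0.05, for FPKM as deposited (dark) and with the size factors (pale); the number tested stands in brackets. The folding genes and the collagens have the longest bars to the right under both scalings, and all tested genes run from 41.6% higher to 21.1% with the scaling.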

How the data were processed

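Total RNA of snap-frozen gastrocnemius was made into TruSeq libraries, per the labels' protocols, which do not say whether strand was kept. HISAT2, HTSeq, DESeq2, Cufflinks and Cuffdiff with build GRCm38 stand in the submitters' processing notes; the sources used here give no versions or settings. The 36 genes and all lists were chosen with earlier results of these data known.

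The authors' deposited table does not name the unit of its values per library. They were taken as FPKM relative to the authors' total reads in genes, since whole reads were recovered on that basis. The table also holds, per the file headers, the authors' mean signal of scaled reads, log2 fold changes, scores (standard error and test statistic) and p-values. From the FPKM and the mean signal, reads, gene lengths and the authors' size factors were recovered, 100% of 127467 values above 0 being whole within 0.01 read. In a gene of 1 kilobase, 3 reads correspond to 0.0597 to 0.109 FPKM, counting error only.

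The main test was a two-sided limma fit (limma 3.58.1, R 4.3.3) of log2(FPKM + 1) with the trend option, restricted to genes averaging 1 FPKM or more, Benjamini-Hochberg adjusted, with 3 libraries a group and no block. On simulated data its raw p-values were calibrated, but more of the calls were false than the adjusted p allows, so calls close to the threshold are less certain than their adjusted p states. Alternatives were size-factor scaling, quantile normalization, a pseudocount of 0.1, no filter or one of 5 FPKM, the replicate number as a block, limma-voom on recovered reads and leaving out each library. Limma-voom used the same size factors, so its counts do not check the scaling separately. Leaving out libraries under size-factor scaling was added after seeing the data. Named genes are the 36 and, from each further list, the called genes of smallest p (3 at most).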

Additional observations from a re-analysis of the deposited data

How the results depend on the processing

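Counts of calls changed with the scaling and the filter. Over the whole table, genes called higher numbered 4476 with FPKM, 2264 with size factors, 2377 after quantile normalization, 2351 with limma-voom and 2023 with the filter of 5 FPKM, and those lower 1255, 3218, 2889 and 3303 under the first 4 of these. Of the 36 genes, 3 were lower with FPKM, 6 with size factors or limma-voom, 5 after quantile normalization and 1 without a filter. Folding genes called lower went from 0 to 1 with size factors, quantile normalization or limma-voom, and degradation genes from 0 to 2, 1 and 2. Sensors called higher went from 3 to 1 and ATF4 targets from 2 to 1, after quantile normalization or with the filter of 5 FPKM, and degradation genes from 3 to 1 with that filter, which tests fewer genes. Without a filter, sensors called lower went from 1 to 0 and ATF4 targets from 2 to 1. The cause was not tested. The change turned for Dnajc3 (-0.064 with size factors, -0.070 with limma-voom), Atf6 (-0.12, -0.14 and, by quantiles, -0.064), Sel1l (-0.17, -0.18 and -0.062) and Sesn2 (by quantiles, -0.089), none of them called with FPKM.

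Leaving out 1 library gave 18 to 22 of the 36 genes higher and 1 to 3 lower with FPKM, and 13 to 17 and 4 to 6 with size factors. Higher folding genes numbered 13 to 14 and 9 to 12, and lower ones 0 and 1. Sensors numbered 2 to 4 and 1 to 2 higher, and 0 to 1 and 1 lower. ATF4 targets numbered 1 to 3 and 0 to 2 higher, and 1 to 2 lower under either scaling. Degradation genes numbered 2 to 3 and 1 to 2 higher, and 0 and 1 to 3 lower. The whole table ran from 3451 to 4545 higher and 1009 to 1189 lower with FPKM. With size factors it was counted only with all libraries, at 21.1% higher and 29.9% lower of all tested genes. The size-factor counts with a library left out therefore have no matching share beside them. Over both scalings and all left-out libraries, log2 changes ran from -0.16 to 0.22 (Atf6), -0.0088 to 0.40 (Dnajb11), -0.14 to 0.28 (Dnajc3), -0.21 to 0.15 (Sel1l), -0.061 to 0.30 (Sesn2), -0.064 to 0.33 (Syvn1) and -0.015 to 0.42 (Xbp1), the lower ends with size factors.

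Deviations of same-numbered libraries from their group means correlated at 0.083, -0.17 and 0.19. The last, of WT 3 with HSA-NRTN 3, was the highest of all pairs, while WT 1 correlated best with HSA-NRTN 2 (0.10). Correlations this weak neither show nor exclude a pairing by replicate number. With the replicate block 21 of the 36 genes were higher and 3 lower (4309 and 1212 in the whole table). Genes near 3 reads, such as Derl3, could not be measured at this depth.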
